A study of Mus musculus with 6 samples.

Results

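The genes of the proteasome and of the E2 ubiquitin-conjugating enzymes were followed in the mammary gland. The members were all probe sets annotated to 1 gene alone whose symbol begins with Psma, Psmb, Psmc, Psmd, Psme or Ube2, which gave 63 of the 8251 genes with such a probe set, measured by 82 of the 12488 probe sets on the array. They fell into the 20S core (19 probe sets), the 19S regulatory particle (25), the immunoproteasome class of Psmb8, Psmb9, Psmb10 and Psme1 (5), the other activators Psme3 and Psme4 (2) and the E2 enzymes (29). The remaining 2, Psmc3ip and Psme3ip1, encode interacting proteins and not subunits. The 2 probe sets of Psme2 are shared with a second annotated gene, Psme2b, so Psme2 was no member.

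RNA came from thoracic mammary glands of virgin F1 CF-1/FVB females aged 16 weeks. LH transgenic mice, which overexpress luteinizing hormone, the pituitary hormone that drives ovarian steroid production, were compared with wild type mice of the same cross. Each group held 3 Affymetrix arrays, and RNA of 3 mice was pooled for each array, so that the values are means over pooled animals and not single glands. The promoter that drives the transgene is not given in the sources used here.

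The proteasome is the main protease of the cytosol and nucleus and degrades proteins that carry chains of ubiquitin. Its 20S core is a barrel of alpha subunits (Psma) and beta subunits (Psmb), and the 19S particle, made of ATPases (Psmc) and other subunits (Psmd), recognises and unfolds substrates. Interferons exchange the catalytic beta subunits for Psmb8, Psmb9 and Psmb10 and raise the activator Psme1, which together favour the peptides shown by MHC class I. E2 enzymes receive ubiquitin from an E1 enzyme and pass it, with an E3 ligase, to the substrate. In secretory tissue such as the mammary gland, the same system disposes of misfolded proteins of the secretory pathway.

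The promoter windows of 6 members that changed between the groups are shown first, because they belong to the called members described below and span the 5 classes. Each window runs from 250 bases before to 50 bases after the start in the RefSeq table for GRCm38.p6, 5′ to 3′ along the gene, and capitals mark a motif match.
Psme4 (chr11:30771525-30771824, plus strand): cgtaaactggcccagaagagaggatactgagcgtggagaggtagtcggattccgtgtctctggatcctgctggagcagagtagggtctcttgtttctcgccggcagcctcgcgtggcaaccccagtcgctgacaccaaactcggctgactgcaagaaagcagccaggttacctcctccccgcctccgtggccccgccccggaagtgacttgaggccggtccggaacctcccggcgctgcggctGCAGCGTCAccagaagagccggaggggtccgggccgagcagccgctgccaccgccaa
Psmb5 (chr14:54617946-54618245, minus strand): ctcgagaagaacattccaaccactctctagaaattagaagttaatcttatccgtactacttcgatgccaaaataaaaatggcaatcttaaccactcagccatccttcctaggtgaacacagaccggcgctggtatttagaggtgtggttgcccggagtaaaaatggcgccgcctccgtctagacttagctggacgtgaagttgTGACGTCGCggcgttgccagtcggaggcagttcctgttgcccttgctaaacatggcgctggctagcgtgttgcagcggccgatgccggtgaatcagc
Psmc6 (chr14:45329574-45329873, plus strand): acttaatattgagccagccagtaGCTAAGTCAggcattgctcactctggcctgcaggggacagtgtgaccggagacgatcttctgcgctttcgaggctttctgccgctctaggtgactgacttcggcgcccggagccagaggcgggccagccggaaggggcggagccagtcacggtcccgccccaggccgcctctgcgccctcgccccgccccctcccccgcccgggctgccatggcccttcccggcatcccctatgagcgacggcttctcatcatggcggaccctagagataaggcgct
Psma2 (chr13:14612992-14613291, plus strand): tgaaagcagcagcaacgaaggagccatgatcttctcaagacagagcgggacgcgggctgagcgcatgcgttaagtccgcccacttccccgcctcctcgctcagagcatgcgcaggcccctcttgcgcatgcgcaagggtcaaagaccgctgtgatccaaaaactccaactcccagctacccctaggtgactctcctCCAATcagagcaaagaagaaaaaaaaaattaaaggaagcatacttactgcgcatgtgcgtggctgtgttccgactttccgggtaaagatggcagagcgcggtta
Psmb8 (chr17:34197945-34198244, plus strand): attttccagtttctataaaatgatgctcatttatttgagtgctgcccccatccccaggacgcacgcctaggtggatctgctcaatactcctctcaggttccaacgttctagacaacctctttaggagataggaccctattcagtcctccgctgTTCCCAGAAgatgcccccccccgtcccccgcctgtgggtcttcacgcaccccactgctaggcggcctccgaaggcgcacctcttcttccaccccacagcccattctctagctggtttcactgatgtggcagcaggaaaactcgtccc
Ube2v1 (chr2:167631956-167632255, minus strand): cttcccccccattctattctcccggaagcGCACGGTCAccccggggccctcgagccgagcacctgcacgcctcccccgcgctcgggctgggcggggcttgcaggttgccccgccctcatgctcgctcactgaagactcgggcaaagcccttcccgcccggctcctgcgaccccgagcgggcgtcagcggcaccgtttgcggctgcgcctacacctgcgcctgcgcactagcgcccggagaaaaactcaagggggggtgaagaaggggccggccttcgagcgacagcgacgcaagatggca
The motifs searched on both strands were the antioxidant response element TGACNNNGC, the CCAAT box CCAAT, the interferon-stimulated response element, the gamma-activated site TTCNNNGAA and the cell cycle homology region TTTGAA. Psme4, Psmb5, Psmc6 and Ube2v1 held the antioxidant element, with its first base in the printed strand at -7, -47, -227 and -221 from the start. Psma2 held a CCAAT box at -54 and Psmb8 a gamma-activated site at -97. Windows were found for 52 of the 63 member genes, and for 9 of the 10 genes called below, all but Psmb7. Of those 9, 4 held the antioxidant element. It occurred in 12.4% of all 32851 windows and in 13.1% of the 61 windows of members. In the 20S core it stood in 16.7% of 12 windows and among E2 genes in 9.09% of 22. The CCAAT box was present in 2 of the 9 (Psma2 and Ube2e1) and in 37.4% of all windows. The gamma-activated site was present in 2 of the 9 (Psmb8 and Ube2z) and in 8.3% of all windows. The motifs were chosen after the calls were seen, and enrichment was not tested. The interferon element stood in 3.44% of all windows and in none of the 9, and the cell cycle element in 17.9% and, of the 9, in Ube2z. A match is a description of these letters and not of a bound site.

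All comparisons below are on the log2(signal + 80.0) scale, LH transgenic minus wild type, tested with limma over all 7453 probe sets whose mean signal reached 336.0, with Benjamini-Hochberg adjustment over all of them and a threshold of 0.05. Of the 82 member probe sets, 68 (56 genes) were tested and 14 were dimmer, with mean signals of 17.5 to 278.0. Psmc3ip, Psmc4, Psmd2, Ube2e3, Ube2l6, Ube2t and Ube2w had no tested probe set. The signal on each array had a trimmed mean of 1500.8 or 1500.9 and a median of 540.6 to 583.5. Tissue markers were present, as 13 of 13 milk protein genes passed the filter. Of these 10 rose and 0 fell (76.9% called, against 21.3% of all tested probe sets), with a median of 1.11. Their mean level relative to wild type was 0.06, 0.50 and -0.56 on the wild type and 1.37, 1.54 and 0.94 on the LH transgenic arrays. Several cell type lists moved with the groups: relative to the wild type mean, the mean level of 12 adipocyte markers lay at -0.98 to -1.34 on the LH transgenic arrays. Endothelial markers (12 genes) lay at -0.79 to -0.98 there. The 17 luminal markers went both ways, with 6 called higher and 2 called lower (Foxa1 -1.23 and Prom1 -1.68), which is 47.1% called. They ranged from -1.68 to 1.51, and their mean was -0.09 to 0.15 on the wild type and 0.22 to 0.35 on the LH transgenic arrays. Skeletal muscle markers (19 genes) lay at -1.98, -1.67 and -0.13 on LH transgenic pools 1, 2 and 3. The ratio of the 3′ to the 5′ Gapdh control was 1.15 to 1.37 on the wild type and 1.05 to 1.41 on the LH transgenic arrays, and that of Actb was 2.02 to 2.23 and 1.27 to 2.09. In whole glands, fewer cells of a type and less RNA per cell cannot be told apart, and the part of these shifts in the results below was not tested.

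Of the 68 tested members, 9 rose and 1 fell in the LH transgenic glands. The share called was 14.7%, below the 21.3% of all tested probe sets that were called (10.5% higher and 10.8% lower). Those that rose were Psme4, Ube2e1, Ube2z, Psmc6, Psmb8, Psma2, Psmb7, Psmb5 and Psmb4, and the one that fell was Ube2v1. Non-overlapping values in both groups were found for 25 members (36.8%), against 40.4% of all tested probe sets. In 20 of these the LH transgenic arrays were higher and in 5 lower, where 20.6% and 19.8% of all tested probe sets were. The median absolute difference was 0.20 over the members and 0.27 over all tested probe sets. For 40 members (58.8%) the 95% interval lay inside a 1.5-fold change in either direction, which held for 37.6% of all tested probe sets. When scaled to the bacterial controls this held for 5 members (7.35%) and 5.5% of all tested probe sets. The counts changed when single pools were left out. Without wild type pool 1, 2 or 3, or without LH transgenic pool 1, the members called higher numbered 4, 2, 1 and 2, and 0 were called lower each time. Without LH transgenic pool 2 or 3 the members called higher numbered 6 and 8, and those called lower 1 and 2. Each such fit rests on fewer residual degrees of freedom. The share of all tested probe sets called in these fits is not given here. Whether the loss is particular to the members was not tested.

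**Figure D1:**
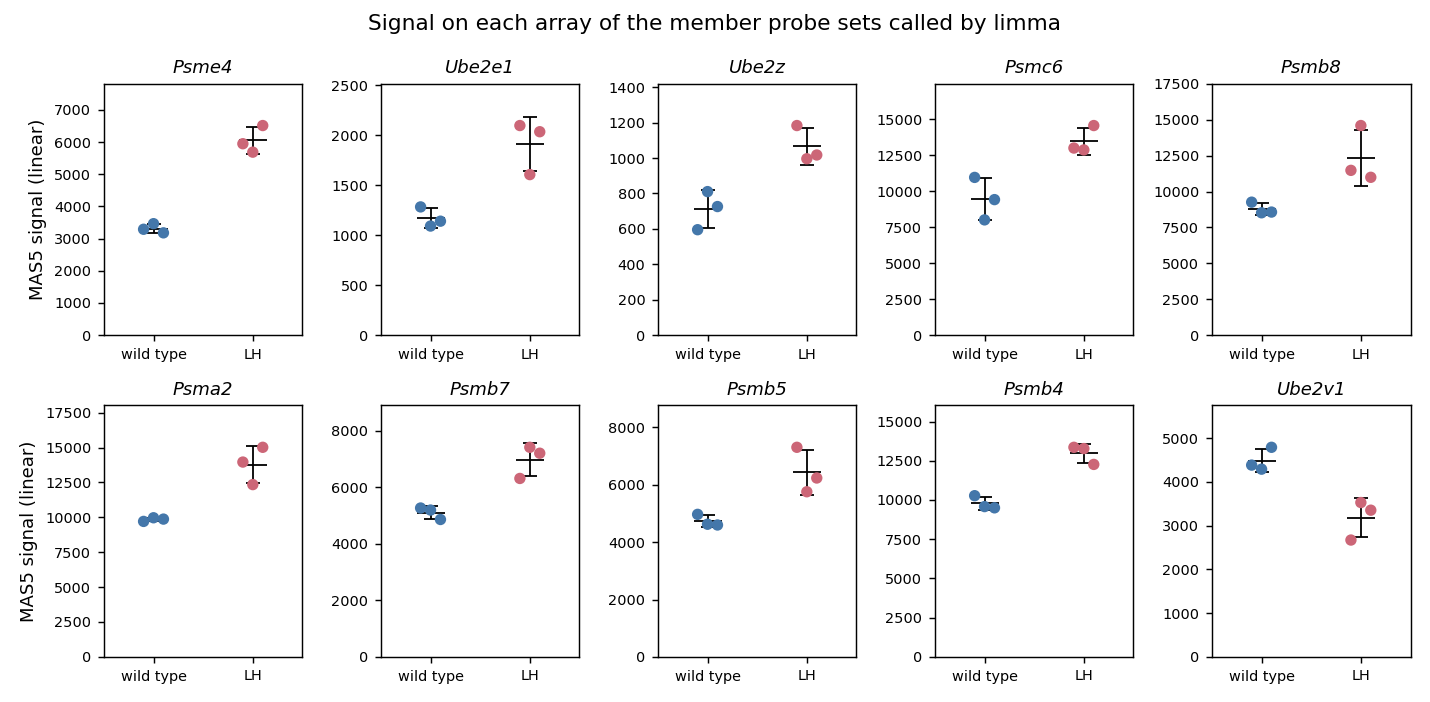
MAS5 signal (linear axis from 0) of the 10 called member probe sets on the 3 wild type arrays (blue) and the 3 LH transgenic arrays (red, LH), with the mean and SD of each group in black. The groups do not overlap in any panel. Psme4 goes from 3463.9 on the highest wild type array to 5687.3 on the lowest LH transgenic array, and Ube2v1 is lower in the LH transgenic glands.

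The activators outside the immunoproteasome class differed in size. Psme4 encodes a large single-chain cap of the 20S core found mainly in the nucleus. Its signal was 3290.2, 3463.9 and 3178.9 on the wild type arrays and 5949.0, 5687.3 and 6514.3 on the LH transgenic arrays. Every LH transgenic value exceeded every wild type value, and the means were 3311 ± 144 and 6050 ± 423 (SD, n = 3 each). The difference was 0.85 (SE 0.12, 95% interval 0.58 to 1.12, adjusted p 0.00157), the largest among the tested members. Psme4 was the only member called after leaving out any 1 of the 6 arrays. Psme3, the nuclear activator of the same protein family as Psme1, had 2984.5, 2997.0 and 3111.8 in wild type and 3812.5, 3906.2 and 3069.0 in LH transgenic glands. LH transgenic pools 1 and 2 lay above the wild type range and pool 3 inside it, and the difference of 0.23 was not called (adjusted p 0.256, 95% interval -0.07 to 0.54).

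In the 20S core, 4 of 16 tested probe sets rose and none fell, which is 25% called against 21.3% of all tested probe sets. On the deposited scale 15 of the 16 differences (14 genes) were above 0, which is 93.8% against 52.8% of all tested probe sets. When scaled to the bacterial controls, as described at the end, 0 of 16 were, against 10.6%. On the deposited scale their median was 0.27 against 0.02 over all tested probe sets. The alpha ring subunit gene Psma2 had 9706.6, 9968.3 and 9872.4 in wild type and 13959.8, 12344.2 and 15017.9 in LH transgenic glands. The wild type arrays lay close together and all LH transgenic arrays above them, and the difference was 0.48 (SE 0.12, adjusted p 0.0184). Of the other alpha subunits, Psma7 and Psma3 had differences of 0.37 and 0.32 without overlap between groups but were not called (adjusted p 0.0659 and 0.0598). Psma6 (0.20), Psma1 (0.14), Psma5 (0.01) and Psma4 (-0.09), with groups that overlapped, were not called either.

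All 9 tested probe sets of the constitutive beta subunits, which cover 7 genes, had differences above 0 on the deposited scale, against 52.8% of all tested probe sets. On the scale of the bacterial controls 0 of 9 did, against 10.6%. On the deposited scale their median was 0.38, and 3 rose (33.3% called, against 21.3% of all tested probe sets). Psmb5, the chymotrypsin-like catalytic subunit, had 4970.0, 4625.4 and 4599.2 in wild type and 7308.9, 5758.7 and 6238.0 in LH transgenic glands. The difference was 0.43 (SE 0.13, adjusted p 0.0418), and a second, dimmer probe set had 0.39 (adjusted p 0.3) with groups that overlapped. Psmb7, the trypsin-like subunit, had 5271.3, 5198.7 and 4864.8 against 6318.2, 7421.3 and 7211.9. Its difference was 0.44 (SE 0.12, adjusted p 0.0289). Psmb4, a beta subunit without catalytic activity, had 10273.5, 9578.3 and 9499.1 against 13357.8, 13277.3 and 12266.3, with a difference of 0.40 (SE 0.11, adjusted p 0.0285). Neither Psmb7 nor this probe set of Psmb4 had overlapping groups. The other Psmb4 probe sets were too dim to be tested. Their means were 108.8 and 15.9 in wild type and 183.2 and 19.2 in LH transgenic glands. Psmb6, the caspase-like subunit, had 5768.8, 4462.2 and 4637.2 against 5797.5, 5878.3 and 4575.6. These values overlapped and the difference of 0.13 was not called (adjusted p 0.601, 95% interval -0.22 to 0.47). Psmb2 varied most among the LH transgenic arrays, with 5585.9, 7200.9 and 3263.0 against 3468.3 to 4214.7 in wild type (0.38, adjusted p 0.313). The called probe sets of Psmb4, Psmb7 and Ube2e1 carry the suffix f and that of Psmb5 the suffix s. These suffixes mark probes that can also bind similar transcripts, so these genes' values are less certain.

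**Figure D2:**
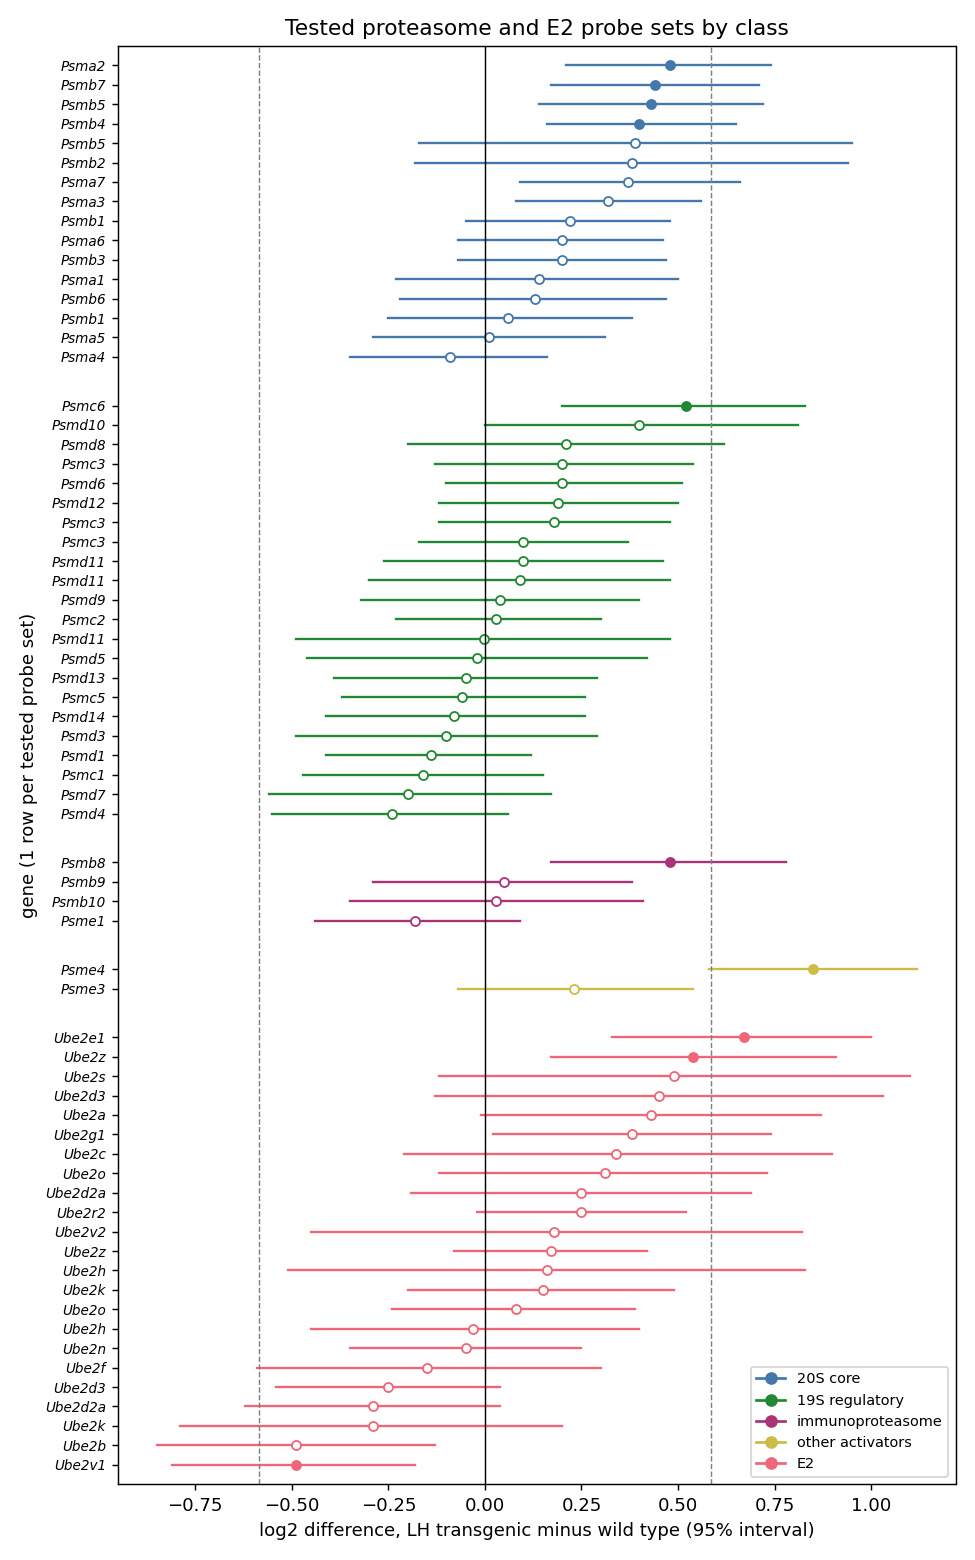
Log2 difference (LH transgenic minus wild type, x axis) of each tested member probe set with its 95% interval, 1 row per probe set and 1 colour per class, without the interacting proteins. Filled points were called by limma, and the dashed lines mark a 1.5-fold change. The 20S core lies mostly to the right of 0 (15 of 16), the 19S regulatory probe sets lie on both sides (12 above and 10 below), and the E2 enzymes spread from -0.49 to 0.67.

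In the 19S regulatory particle, 1 of 22 tested probe sets rose and none fell (4.55% called, against 21.3% of all tested probe sets). On the deposited scale the median difference was 0.04, and 12 differences lay above and 10 below 0. On the scale of the bacterial controls all 22 lay below 0 and 10 (45.5%) were called lower, against 45.7% of all tested probe sets. The 95% interval stayed inside a 1.5-fold change for 19 of the 22 (86.4%, against 37.6% of all tested probe sets) on the deposited scale and for 1 of 22 (4.55%, against 5.5%) on the control scale. Psmc6, an ATPase of the base, had 10967.0, 8012.9 and 9422.5 in wild type and 13007.8, 12880.1 and 14573.4 in LH transgenic glands. Every LH transgenic array was above the wild type range, and the difference was 0.52 (SE 0.14, adjusted p 0.0269). The other 6 tested Psmc probe sets, for Psmc1, Psmc2, Psmc3 and Psmc5, had differences of -0.16 to 0.20. Of 15 tested Psmd probe sets none was called by limma. Over all 7453 tested probe sets 2593 had an unadjusted limma p under 0.05, and of the 15 Psmd probe sets 1 did. That was Psmd10, a chaperone of base assembly and no subunit of the finished particle, with 826.6, 818.9 and 579.4 against 938.9, 1136.5 and 924.7 (0.40, adjusted p 0.142). The ubiquitin receptor gene Psmd4 had 7183.8, 7078.6 and 8965.7 against 6679.2, 6937.9 and 5895.5. Its groups did not overlap, the LH transgenic arrays being lower, but the difference of -0.24 was not called (adjusted p 0.241). On the control scale it was -0.83 and called lower (adjusted p 0.00184).

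Per array, the mean of the 16 tested 20S core probe sets relative to their wild type means was 0.01, 0.03 and -0.03 on the wild type arrays and 0.27, 0.27 and 0.23 on the LH transgenic arrays. The groups did not overlap. The milk protein genes were also higher on all 3 LH transgenic arrays, as given above, and their part in the 20S core difference was not tested. The 22 probe sets of the 19S particle had -0.01, -0.06 and 0.07 in wild type and 0.02, 0.12 and 0.02 in LH transgenic glands, which overlapped. E2 probe sets had 0.05, 0.01 and -0.06 against 0.11, -0.02 and 0.28, with pool 3 highest. The immunoproteasome class had 0.09, -0.08 and -0.01 against 0.08, 0.28 and -0.07, with pool 2 highest. All tested probe sets together stayed between -0.02 and 0.02 on every array, a level that the scaling of the arrays fixes. Within groups the median residual SD on the log2 scale was 0.12 for the 20S core, 0.17 for the 19S particle and 0.21 for E2 enzymes, against 0.20 for all tested probe sets. No test of one class against another was made.

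**Figure D3:**
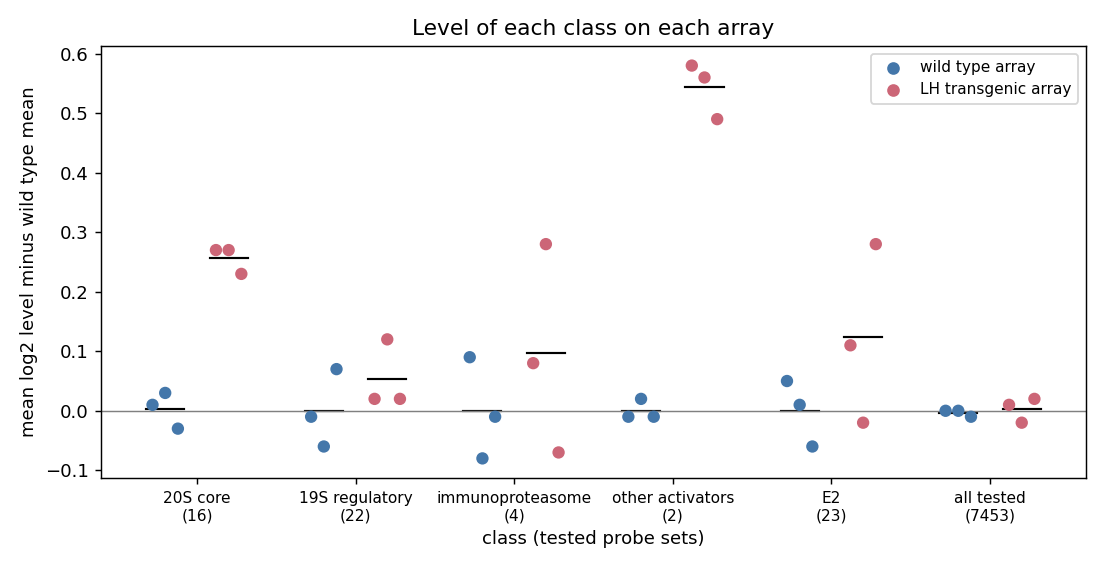
Mean over the tested probe sets of each class of log2(signal + 80.0) minus the wild type mean (y axis), on each wild type (blue) and LH transgenic (red) array, with black lines for group means and the number of probe sets in parentheses. The 20S core sits at 0.23 to 0.27 on the LH transgenic arrays and -0.03 to 0.03 on the wild type arrays, while the other classes except the activators Psme3 and Psme4 overlap between the groups.

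In the immunoproteasome class, 1 of 4 tested probe sets rose, 25% against 21.3% of all tested probe sets, and the class median was 0.04. Psmb8, the inducible counterpart of Psmb5, had 9258.7, 8519.0 and 8568.8 in wild type and 11474.1, 14594.1 and 10989.8 in LH transgenic glands. LH transgenic pool 2 was highest and no value overlapped, with means of 8782 ± 413 and 12353 ± 1956 (SD, n = 3 each). The difference was 0.48 (SE 0.14, adjusted p 0.0334), but 11 of 19 alternative settings ended this call. Those 11 included leaving out any 1 of 5 arrays, all but LH transgenic pool 3. Other calls ended as well, in 9 of 19 settings for Psmb4 and Psmb5 and in 7 for Psmb7 and Ube2v1. For Psmc6 it was 6, for Psma2 5, for Ube2e1 4 and for Psme4 1. Psmb9, the counterpart of Psmb6, had 4702.8, 3881.2 and 3588.6 against 4461.5, 4477.2 and 3617.6 (0.05, adjusted p 0.862). Psmb10, the counterpart of Psmb7, had 4855.6, 4344.5 and 5142.6 against 4852.7, 6124.8 and 3912.7 (0.03, adjusted p 0.918), with the highest and the lowest value both in LH transgenic glands. Psme1, a subunit of the interferon-induced activator ring, had 6876.9, 6216.4 and 6987.0 against 5614.8, 6242.9 and 5862.2 (-0.18, adjusted p 0.32). A second Psme1 probe set was too dim to be tested, with 108.8, 14.2 and 115.3 against 11.6, 24.2 and 69.6. For Psmb9, Psmb10 and Psme1 the 95% intervals (-0.29 to 0.38, -0.35 to 0.41 and -0.44 to 0.09) lay inside a 1.5-fold change on the deposited scale. On the control scale Psme1 (-0.76, adjusted p 0.00464) and Psmb10 (-0.55, adjusted p 0.0466) were called lower, and Psmb9 had -0.54 (adjusted p 0.055).

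Within an array, the ratio of an inducible subunit to its constitutive counterpart is almost free of the array's scale. The log2 ratio of Psmb8 to Psmb5 was 0.89, 0.87 and 0.89 on the wild type arrays and 0.64, 1.33 and 0.81 on the LH transgenic arrays. The wild type values lay inside the LH transgenic range, and the change was 0.05 (SE 0.21 over arrays; exact permutation p = 1). The ratio of Psmb9 to Psmb6 changed by -0.08 (SE 0.05), from -0.29, -0.20 and -0.36 to -0.37, -0.39 and -0.33 (exact permutation p = 0.2). The ratio of Psmb10 to Psmb7 went from -0.12, -0.25 and 0.08 to -0.38, -0.27 and -0.87, a change of -0.41 (SE 0.21). Here every LH transgenic value lay below every wild type value, and the two-sided exact permutation p of 0.1 is the smallest that 3 arrays against 3 can give. After Benjamini-Hochberg adjustment over the 3 ratios the p-values were 1, 0.3 and 0.3. The last change was -0.23 without LH transgenic pool 3. Levels of different probe sets cannot be set against each other, so only the change of a ratio is informative.

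**Figure D4:**
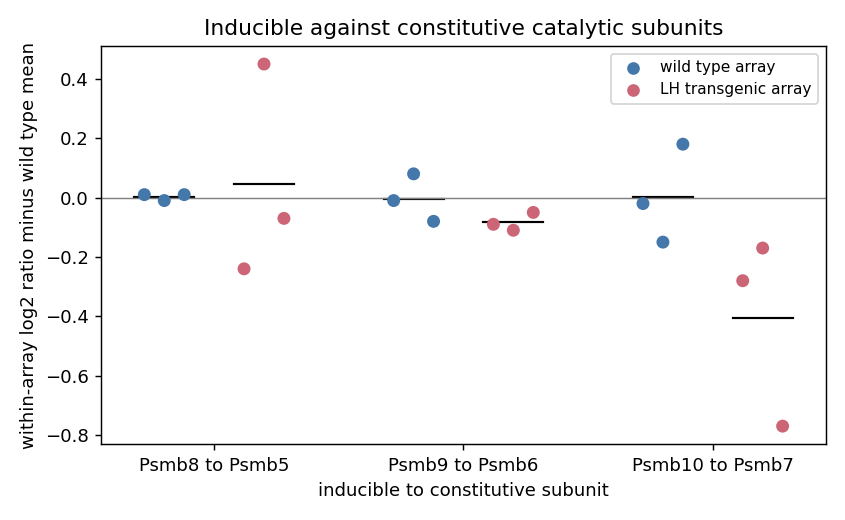
Within-array log2 ratio of each inducible subunit to its constitutive counterpart, with the wild type mean subtracted (y axis), on each wild type (blue) and LH transgenic (red) array, with black lines for group means. Psmb8 to Psmb5 spreads on both sides of 0 in the LH transgenic glands, and all 3 LH transgenic values of Psmb10 to Psmb7 lie below the wild type values.

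For neighbouring steps, the share called was 10% of 10 tested genes of class I presentation and 6.67% of 15 interferon-induced genes. Over all tested probe sets it was 21.3%. Of 10 tested genes of MHC class I presentation, B2m, its invariant light chain, rose by 0.58 (adjusted p 0.0255), from 34007 ± 3832 to 51204 ± 9270 (SD, n = 3 each), and no other was called. On the deposited scale all 10 differences were above 0, against 52.8% of all tested probe sets, with a median of 0.18. Of 15 interferon-induced genes Ifi47, an interferon-inducible GTPase, rose by 0.87 (adjusted p 0.00541) and no other was called. Since leukocytes express the immunoproteasome at a high level, their markers are given beside it. Of 17 tested leukocyte markers 2 rose (Lcp1 0.95 and Ptpn18 0.50) and 1 fell (Lsp1 -0.79), which is 17.6% called. The summed signal of the 20 on the array was 27660 to 32560 in wild type and 31026 to 39432 in LH transgenic glands. Of 12 macrophage markers 5 rose and none fell (41.7% called, against 21.3% of all tested probe sets), with a median of 0.51. Their list mean was 0.64, 0.49 and 0.37 on LH transgenic pools 1, 2 and 3. Of 7 tested B and T cell markers 1 rose (Blnk 1.15) and none fell (14.3% called). Their median was -0.11, with 2 differences above 0 and 5 below. The mean of that list was 0.22, -0.03 and -0.19 on LH transgenic pools 1, 2 and 3. With the leukocyte marker level as a covariate, which left 3 residual degrees of freedom, the difference of Psmb8 was 0.40 (0.48 without it), of Psmb5 0.44 (0.43), of Psmb7 0.44 (0.44) and of Psmb4 0.37 (0.40). Those of Ube2z and Ube2v1 were 0.47 (0.54) and -0.45 (-0.49). None of these 6 was called in that fit (adjusted p 0.071 to 0.139), and Psme4, Psma2, Psmc6 and Ube2e1 were. The share of all tested probe sets called in that fit is not given here.

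Of 23 tested E2 probe sets (17 genes), 2 rose and 1 fell (13% called, against 21.3% of all tested probe sets). On the deposited scale 15 differences (65.2%) lay above and 8 below 0, against 52.8% above 0 over all tested probe sets. On the control scale 1 lay above and 22 below 0, and 0 were called higher by limma and 8 (34.8%) lower, against 45.7% of all tested probe sets. On the deposited scale their range was -0.49 to 0.67 and their median 0.17. Ube2e1, an E2 of the family with an N-terminal extension, had 1283.1, 1091.5 and 1140.2 in wild type and 2097.3, 1606.3 and 2035.5 in LH transgenic glands. All LH transgenic arrays were higher, and the difference was 0.67 (SE 0.15, adjusted p 0.0132). Ube2z, which takes its ubiquitin from the E1 enzyme Uba6, had 595.2, 810.3 and 725.9 against 1183.3, 995.8 and 1017.1. Its groups did not overlap and the difference was 0.54 (SE 0.16, adjusted p 0.0434), and 10 of 17 alternative settings ended this call. The brighter probe set of Ube2z had 5869.4, 5725.9 and 5955.2 against 6783.7, 6783.2 and 6220.4, with a difference of 0.17 that was not called (adjusted p 0.321). Ube2v1 encodes an E2 variant that lacks the catalytic cysteine and works bound to Ube2n. It had 4384.5, 4291.7 and 4791.7 against 2670.9, 3528.8 and 3353.7, so that every LH transgenic array was lower. The difference was -0.49 (SE 0.14, adjusted p 0.0346). Its partner Ube2n had 6003.9, 5313.8 and 5711.7 against 5321.6, 4868.7 and 6322.6, which overlapped (-0.05, adjusted p 0.832), and the related Ube2v2 had a difference of 0.18 (adjusted p 0.688).

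The close paralogs Ube2a and Ube2b, which act in DNA damage tolerance and histone ubiquitination, had differences of opposite sign. Ube2b had 3806.4, 3653.1 and 3539.0 in wild type and 2531.4, 2110.4 and 3223.8 in LH transgenic glands, and Ube2a 894.3, 944.0 and 876.8 against 1104.4, 1012.0 and 1712.7. Neither pair of groups overlapped, the LH transgenic arrays being lower for Ube2b and higher for Ube2a. Neither difference was called (-0.49, adjusted p 0.0572, and 0.43, adjusted p 0.155), and the difference between the 2 genes was not tested. Ube2c and Ube2s, the E2 enzymes of the anaphase-promoting complex, had differences of 0.34 and 0.49 (adjusted p 0.358 and 0.232). Wild type pool 1 was the highest wild type array for both, with 431.6 and 2607.6. Beside them, 8 of 24 tested cell division genes were called higher and 0 lower (33.3% called, against 21.3% of all tested probe sets). The part of this in both values was not tested. Among the 10 member genes with several tested probe sets, 5 had 1 sign throughout, and Psmd11, Ube2d2a, Ube2d3, Ube2h and Ube2k had both signs, with no probe set of these 5 called.

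The other genes of the ubiquitin system were read from 5 lists. Over all tested probe sets the share called was 21.3%. It was 0% for the 4 tested genes of E1 enzymes and their partners, 40% for the ubiquitin-like modifiers and 16.7% for proteasome assembly. For the shuttle factors it was 12.5% and for the cullin list 10.7%. Of 4 tested genes of E1 enzymes and their partners (Uba3, Uba7, Sae1 and Nae1) none was called by limma. An unadjusted limma p under 0.05 was found for 0 of them, against 2593 of all 7453 tested probe sets. Of the 13 genes in this list 5 were on the array, and Uba1y was too dim to be tested. The tested genes included no ubiquitin gene and neither Uba1 nor Uba6, so the list does not cover the E1 enzymes of ubiquitin. Of 5 ubiquitin-like modifiers 2 rose, Urm1, a modifier that also carries sulfur for tRNA, from 871.3 ± 215.3 to 1609 ± 167 (0.85, adjusted p 0.0114) and Ufm1, a modifier of proteins at the endoplasmic reticulum, from 1716 ± 193 to 2366 ± 33.4 (0.45, adjusted p 0.0388; SD, n = 3 each). Of 12 genes of proteasome assembly and associated proteins 2 rose and none fell. These were Usp14, a deubiquitinase bound to the 19S particle (0.46, adjusted p 0.0468), and Txnl1, a thioredoxin-like protein bound there too (0.47, adjusted p 0.0465). Nfe2l1, the transcription factor known to raise proteasome genes when the protease is impaired, had a difference of -0.0023 (adjusted p 0.996). Of 8 shuttle factors and partners of the p97 segregase, Ufd1 fell by 0.73 (adjusted p 0.0304) and no other was called. Of 28 genes of cullins, the anaphase-promoting complex and the COP9 signalosome 1 rose and 2 fell. Gps1, a signalosome subunit, rose by 0.52, and Anapc16 and Cdc23, subunits of the anaphase-promoting complex, fell by 0.79 and 0.55 (adjusted p 0.0236, 0.0101 and 0.0441).

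The deposited scale sets the directions above. The mean signal of the 9 bacterial hybridisation controls was 9068.9 to 11803.5 on the wild type and 13469.8 to 16993.4 on the LH transgenic arrays. When each array was divided by this mean, the median of all tested probe sets moved from 0.02 to -0.53, and 48.1% of them were called, 45.7% lower and 2.36% higher. On that scale 0 members were called higher by limma and 22 (32.4%) lower. Psme4 and Ube2e1 had 0.27 and 0.10, without a call. The 7 of Psma2, Psmb4, Psmb5, Psmb7, Psmb8, Psmc6 and Ube2z had differences below 0, also without a call. Relative to the median of all tested probe sets, the 20S core median was 0.25 on the deposited scale and 0.21 on the control scale, the 19S median 0.02 and 0.01, and the E2 median 0.15 and 0.13. Psme4 lay at 0.80 and Ube2v1 at -0.54 from that median on the control scale.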

How the data were processed

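Affymetrix arrays were hybridised with biotin-labelled cRNA of pooled mammary RNA, 3 arrays per group. The authors deposited 1 intensity per probe set and array, computed by MAS5 (submitters' processing notes). Not given in the sources used here were its version, detection calls and a genome build. MAS5 brings every array to the same average, which hides a change shared by most genes. Groups follow the labels' source names, pools were numbered in accession order, and nothing pairs arrays or names a batch. The pools of a group held different mice.

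Probe sets were named from the platform annotation (10833 with 1 gene, 396 with several, 1193 with none, 66 controls). All 82 members had a gene ID in the GRCm38.p6 table, which changed 0 symbols. To log2(signal + 80.0), where 80.0 is the 20th percentile of the values, limma (lmFit and eBayes with a trend, two-sided, no covariates) was fitted over the 7453 probe sets at or above the 40th percentile of mean signal, with Benjamini-Hochberg adjustment; the added 80.0 understates fold changes of dim genes. The number of arrays limits the precision. Simulated data had these means and spreads (7453 probe sets, 50 changed at each size). Of the 1.5-fold changes 24% were recovered, of the 2-fold 68%, of the 3-fold 94% and of the 4-fold 86%, with 7 of 143 calls false. The data themselves had 1586 calls, many more than the probe sets changed in the simulation. The adjustment was therefore stricter there, and these shares need not hold for the data.

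Members and lists were chosen with earlier results of these data known. Named were all immunoproteasome members, Psme3, Psme4 and Psmb5 to Psmb7, the called members of each family by size (up to 4 per direction, 8 for Ube2) or the 2 with the lowest p, genes with a called probe set and another of opposite sign (there were 0), and up to 3 called genes per list; further members, Nfe2l1 and the motifs were chosen after their values or calls were seen. Lists took the brightest probe set per gene.

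The alternatives were quantile normalization, median centring, scaling to 9 bacterial controls, a floor at 16.8, a pseudocount of 325.5, no filter, a filter at 933.0, eBayes without a trend or robust, arrayWeights, leukocyte or muscle marker level as a covariate, 1 probe set per gene, and leaving out each array. Fits used limma 3.58.1 and statmod 1.5.0 in R 4.3.3. Summaries and figures used pandas 2.3.3, numpy 2.4.6, scipy 1.17.1 and matplotlib 3.10.9 in Python 3.11.15.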

Additional observations from a re-analysis of the deposited data

How the results depend on the processing

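The 9 members called higher became 0 with scaling to the bacterial controls. With the leukocyte or the skeletal muscle marker level as a covariate 4 members were called higher. When 1 array was left out the number ranged from 1 to 8. The share of all tested probe sets called with a covariate or without 1 array is not given here. Whether these losses are particular to the members was not tested. The 1 member called lower became 22 with the bacterial controls, 2 with median centring, the stricter filter or arrayWeights, and 0 with eBayes without a trend or either covariate (0 to 2 when 1 array was left out). The same 10 members were called, in the same direction, after quantile normalization, with a floor, with the larger pseudocount, with robust eBayes and with arrayWeights, which called 11 in all. The fit with the muscle covariate called 4 members. Of the 10, 2 (Psma2 and Psme4) were among them, and the rest of the 4 were not called in the main fit. The other differences in that fit were 0.52 for Psmb7, 0.32 for Psmb4, 0.36 for Psmb5, 0.35 for Psmb8, 0.62 for Psmc6, 0.72 for Ube2e1, 0.47 for Ube2z and -0.38 for Ube2v1, in the direction they had without it.

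The 20S core median was 0.27, and the pooled SD between arrays of the same group was 0.02. This median was 0.24 after quantile normalization, 0.32 without a filter and 0.22 with the stricter filter. With the leukocyte and muscle covariates it was 0.18 and 0.32, and when 1 array was left out 0.22 to 0.30. With the bacterial controls the medians were -0.32 for the 20S core, -0.52 for the 19S particle, -0.54 for the immunoproteasome class and -0.40 for E2 enzymes. The immunoproteasome median was -0.17 with the muscle covariate and -0.07 to 0.17 without single arrays (-0.01 without wild type pool 2 and -0.07 without LH transgenic pool 2), where the 19S median was 0.0015 to 0.08 and the E2 median 0.09 to 0.21.

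The change in the ratio of Psmb8 to Psmb5 was -0.0010 after quantile normalization and -0.15 to 0.19 without single arrays, below 0 without LH transgenic pool 2. For Psmb9 to Psmb6 and Psmb10 to Psmb7 the ranges without single arrays were -0.12 to -0.04 and -0.52 to -0.23. With the bacterial controls the differences of Psma2 (-0.11), Psmb4 (-0.19), Psmb5 (-0.15), Psmb7 (-0.14), Psmb8 (-0.11), Psmc6 (-0.07) and Ube2z (-0.0008) lay below 0 without a call, and Psmb10 (-0.55, adjusted p 0.0466) was called lower. Dividing by the bacterial controls, which were brighter on the LH transgenic arrays, lowers the difference of every probe set. Why the controls were brighter there was not tested, nor was the cause of the other moves. Fits without 1 array or with a covariate rest on fewer residual degrees of freedom.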
